A study of Mus musculus with 4 samples.

Results

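Lipid uptake, storage and lipolysis genes are described here as a set of 10 genes of the 23847 rows of the deposited table. They were chosen by gene symbol, with earlier results of these data known. The set holds Lpl, Gpihbp1 and Vldlr, which act on lipoproteins at the capillary wall, Cd36 and Slc27a1, which carry fatty acids into the cell, Dgat2 and Plin5, which build and coat the lipid droplet, and Pnpla2, Lipe and Ces1d, which hydrolyse stored lipid. All 10 genes were on a single row and passed the filter on low values. The libraries were made from polyadenylated RNA of the ventricles of male mice on the C57BL/6 background at postnatal day 21. Cdk8, the cyclin-dependent kinase of the Mediator complex of transcription, was overexpressed specifically in the heart in 2 libraries (Cdk8Tg), and 2 libraries were wild type (WT). None of the sources used here names the promoter of the transgene or says whether the mice came from a single founder line. Nor do the labels say that every library is from a separate animal. All p-values therefore reflect the spread between these 4 samples alone, and part of that spread may be technical.

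The heart draws most of its energy from fatty acids. Lipoprotein lipase, held on the capillary wall by Gpihbp1, releases them from the triglyceride of circulating lipoproteins, and carriers such as CD36 bring them into the muscle cell. There they are oxidised, or esterified to triglyceride and kept in droplets, from which lipases release them again. Because ventricle holds muscle, endothelial, connective tissue and blood-derived cells, a lower level in bulk RNA can come from fewer cells of a type or from less RNA per cell, and these cannot be told apart.

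Cdk8 itself was measured at 7309 and 8122 FPKM in Cdk8Tg libraries against 7.89 and 9.86 FPKM in the WT libraries. FPKM counts fragments per kilobase of transcript, scaled to the size of the library, so levels can be compared between genes. From the spacing of low values, sequencing depth was estimated at about 12210000 and 11710000 fragments for Cdk8Tg and at about 13830000 for each WT library. That estimate holds only if each library was scaled by its own fragment total. Differences were tested with limma on log2(FPKM + 1) over all 11888 rows with a mean of at least 1 FPKM, and a Benjamini-Hochberg adjusted p under 0.05 was called. Of these rows, 2009 were called higher and 949 lower in Cdk8Tg, with a median log2 change of 0.13, against 946 higher and 1385 lower after median-of-ratios scaling, which brought the median to 0.00. Cdk8Tg replicate 2 carried transcripts of fat cells, with the brown fat gene Ucp1 at 10.7 FPKM and listed at 0 in the other 3 libraries. WT replicate 2 carried the liver transcript Alb at 9.18 FPKM, against 0.401 FPKM in Cdk8Tg replicate 1, 0.878 FPKM in WT replicate 1 and a listed 0 in Cdk8Tg replicate 2. Values without these libraries are given below where they matter.

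Of the 10 genes, 7 fell in the Cdk8Tg ventricles and 0 rose, while 7.98% of all tested genes were called lower (limma, Benjamini-Hochberg adjusted p under 0.05). The genes that fell were Lpl, Cd36, Slc27a1, Dgat2, Plin5, Pnpla2 and Ces1d. No member was higher at an unadjusted p under 0.05 either, since 8 were lower and 0 higher at that level. The share of all tested genes at that unadjusted level is not given here. The authors' deposited table called 8 members lower and 0 higher, against 8.43% and 5.53% of the genes that table tested. A fall of at least 1 on the log2 scale was called for 5 of the 10, Lpl, Slc27a1, Dgat2, Plin5 and Ces1d, and for 1.72% of all tested genes. Gpihbp1, Vldlr and Lipe were not called. Both Cdk8Tg libraries lay below both WT libraries for 9 of the 10 genes, and 21.1% of all tested genes showed that order. The exception was Lipe. The opposite order was seen for 0 of the 10 genes and for 49.2% of all tested genes. Because the 10 genes were chosen with earlier results of these data known, these shares describe the set and are no independent test. The median log2 change of the 10 genes was -1.09, and it was -1.24 after median-of-ratios scaling, which called the same 7 genes lower and 0 higher, against 11.7% and 7.96% of all tested genes. Summed over the 10 genes, the level was 838 and 847 FPKM in the Cdk8Tg libraries and 1951 and 2069 FPKM in the WT libraries.

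**Figure D1:**
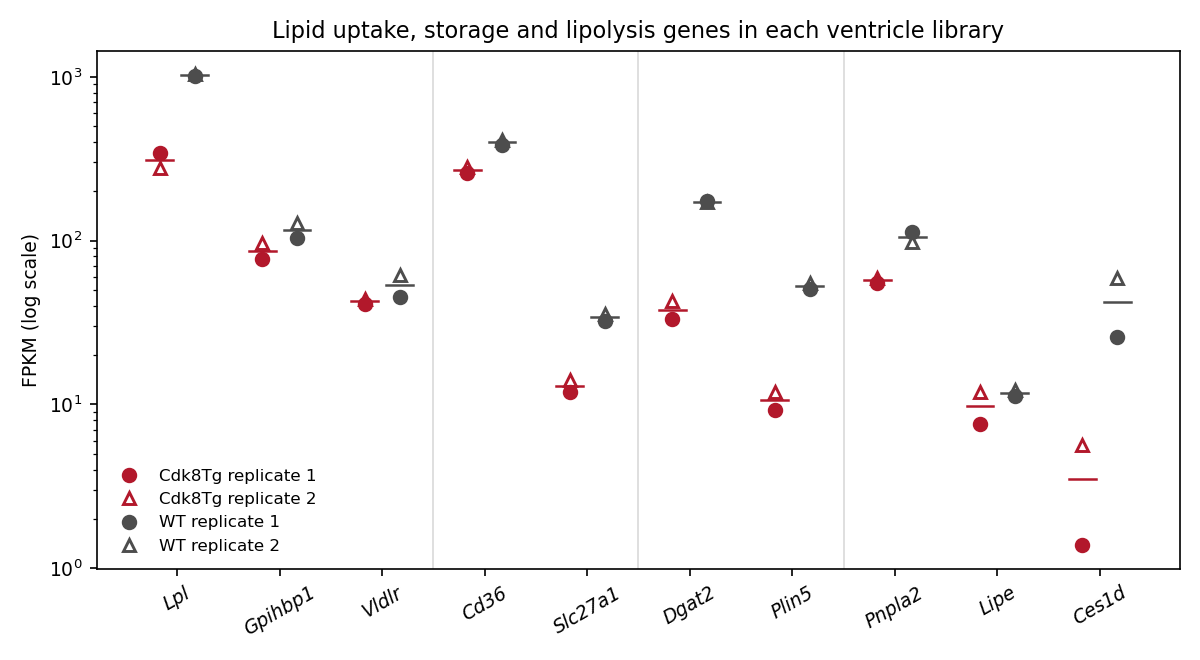
Level of each gene in FPKM (log axis) in the 2 Cdk8Tg (red) and 2 WT (grey) libraries, with filled circles for replicate 1, open triangles for replicate 2 and a bar at each group mean; vertical lines part the lipoprotein, fatty acid carrier, storage and lipase genes. The Cdk8Tg points lie below the WT points for every gene but Lipe, where 11.9 FPKM in Cdk8Tg replicate 2 lies between the WT values of 11.3 and 12.2 FPKM.

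Lpl, the lipase that frees fatty acids from lipoproteins, gave 341 and 279 FPKM in Cdk8Tg ventricles against 1011 and 1036 FPKM in WT ventricles. The groups were far apart, with the larger spread in Cdk8Tg. The means were 310 ± 43.8 FPKM in Cdk8Tg and 1023 ± 17.5 FPKM in WT (SD, n = 2 per group), so that Cdk8Tg was at 30.3% of the WT level. On the log2 scale Lpl changed by -1.73 ± 0.12 (SE; limma, Benjamini-Hochberg adjusted p = 0.0034), and it lay between -1.88 and -1.40 with the call kept under all 15 alternatives. By rank among all rows, Lpl was the 202nd and 241st most abundant transcript in the Cdk8Tg libraries and the 67th and 63rd in the WT libraries. The gene (ENSMUSG00000015568.16) is protein-coding and lies on the plus strand of chromosome 8 at 68880555 to 68906932 (RefSeq, GRCm38.p6).

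Gpihbp1, the endothelial protein that takes lipoprotein lipase to the capillary lumen and anchors it there, was at 77.6 and 96.1 FPKM in Cdk8Tg against 104 and 128 FPKM in WT. The Cdk8Tg values were lower without overlap, but replicates differed by 1.24 times in Cdk8Tg and by 1.23 times in WT. Its log2 change of -0.41 ± 0.15 was not called (SE; limma, Benjamini-Hochberg adjusted p = 0.095), although the authors' deposited table called it lower, at 98.8 FPKM in Cdk8Tg and 148 FPKM in WT (q-value = 0.012). Of 16 endothelial markers, 0 were called in either direction, with 0 higher and 1 lower at an unadjusted p under 0.05 and 2 lower in the authors' deposited table. After median-of-ratios scaling 1 of them was called lower, Rgcc, named after its values were seen. Their summed level was 651 and 682 FPKM in Cdk8Tg and 700 and 801 FPKM in WT. Their median log2 change was -0.18, against 0.13 for all tested genes. After median-of-ratios scaling these medians were -0.315 and 0.001. Pecam1 and Cdh5, adhesion proteins of endothelial cells, were at 57.4 and 60.4 FPKM and at 63.6 and 56.7 FPKM in Cdk8Tg, against 60.7 and 63.5 FPKM and 63.1 and 65.6 FPKM in WT. On the log2 scale Pecam1 changed by -0.07 and Cdh5 by -0.10, less than the median of the endothelial markers. The ratio of Gpihbp1 to Pecam1 was 1.35 and 1.59 in Cdk8Tg and 1.72 and 2.02 in WT, without overlap. Its ratio to Cdh5 was 1.22 and 1.7 in Cdk8Tg and 1.65 and 1.95 in WT, with overlap. The part of endothelial cell number in the value of Gpihbp1 was not tested. Set against Gpihbp1 in the same library, Lpl was 4.4 and 2.91 times as abundant in Cdk8Tg and 9.71 and 8.09 times as abundant in WT. Such a ratio does not depend on the scaling of a library, and the groups did not overlap. With 2 libraries per group, an exact two-sided permutation test cannot go below p = 0.333, which is what this ratio gave.

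Vldlr, a receptor for triglyceride-rich lipoproteins that binds particles alongside the lipase, was at 41.0 and 44.1 FPKM in Cdk8Tg against 45.0 and 61.9 FPKM in WT. WT replicate 1 lay nearer to the Cdk8Tg libraries than to WT replicate 2. On the log2 scale the difference was -0.31 ± 0.16 with no call (SE; limma, Benjamini-Hochberg adjusted p = 0.20). In the authors' deposited table it was at 48.4 FPKM in Cdk8Tg and 67.9 FPKM in WT, with a q-value of 0.054.

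Cd36, the membrane protein that takes up long-chain fatty acids in muscle, endothelium and macrophages, stood at 259 and 282 FPKM in Cdk8Tg against 383 and 412 FPKM in WT. The replicates of each group lay within 1.09 times of each other and the groups did not overlap. The log2 change of -0.55 ± 0.09 was called (SE; limma, Benjamini-Hochberg adjusted p = 0.016). That call was lost under quantile normalization, where limma gave -0.28 and an adjusted p of 0.12, and when rows of low FPKM were kept in (0.052). Leaving out WT replicate 1 or WT replicate 2 also ended it, at limma adjusted p-values of 0.083 and 0.13.

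Slc27a1, the fatty acid transport protein FATP1, which also has acyl-CoA synthetase activity, was at 11.95 and 14.1 FPKM in Cdk8Tg against 32.5 and 35.5 FPKM in WT. Its change on the log2 scale was -1.32 ± 0.11 (SE; limma, Benjamini-Hochberg adjusted p = 0.0041), and all 15 alternatives kept the call. Cd36 was 21.7 and 19.9 times as abundant as Slc27a1 in the Cdk8Tg libraries and 11.8 and 11.6 times in the WT libraries. Slc27a4, another fatty acid transport protein of the family, was at 7.503 and 7.37 FPKM in Cdk8Tg against 7 and 6.66 FPKM in WT, with a log2 change of 0.11 and no call (limma, Benjamini-Hochberg adjusted p = 0.40). The level of Slc27a1 was 1.59 and 1.92 times that of Slc27a4 in Cdk8Tg and 4.64 and 5.33 times that in WT.

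Dgat2, an enzyme of the endoplasmic reticulum and droplet surface that adds the last acyl chain to triglyceride, was at 33.1 and 42.6 FPKM in Cdk8Tg against 175 and 172 FPKM in WT. The Cdk8Tg mean was 21.8% of the WT mean, with 37.8 ± 6.72 FPKM against 173 ± 1.93 FPKM (SD, n = 2 per group). On the log2 scale Dgat2 changed by -2.18 ± 0.13 (SE; limma, Benjamini-Hochberg adjusted p = 0.0023). Dgat1, which catalyses the same reaction and is unrelated in sequence, was at 9.91 and 10.96 FPKM in Cdk8Tg against 8.89 and 8.70 FPKM in WT, with a log2 change of 0.22 and no call (limma, Benjamini-Hochberg adjusted p = 0.13). The level of Dgat2 was 3.33 and 3.88 times that of Dgat1 in the Cdk8Tg libraries and 19.7 and 19.8 times in the WT libraries. Among the 10 genes, Dgat2 held place 6 by level in Cdk8Tg, where its range overlapped that of Vldlr, and place 3 in WT.

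Plin5, the perilipin of oxidative tissues that coats droplets, ties them to mitochondria and holds the lipolytic proteins, was at 9.24 and 11.9 FPKM in Cdk8Tg against 50.6 and 55.0 FPKM in WT. The Cdk8Tg mean was 20.0% of the WT mean. The log2 change of -2.23 ± 0.13 had the smallest adjusted p of the 10 genes (SE; limma, Benjamini-Hochberg adjusted p = 0.0022). Plin2, the perilipin found on droplets of nearly all cells, was at 24.7 and 28.3 FPKM in Cdk8Tg against 27.1 and 27.3 FPKM in WT, with a log2 change of -0.04 and no call (limma, Benjamini-Hochberg adjusted p = 0.77). Plin5 was therefore 0.374 and 0.421 times as abundant as Plin2 in Cdk8Tg and 1.87 and 2.01 times as abundant in WT.

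**Figure D2:**
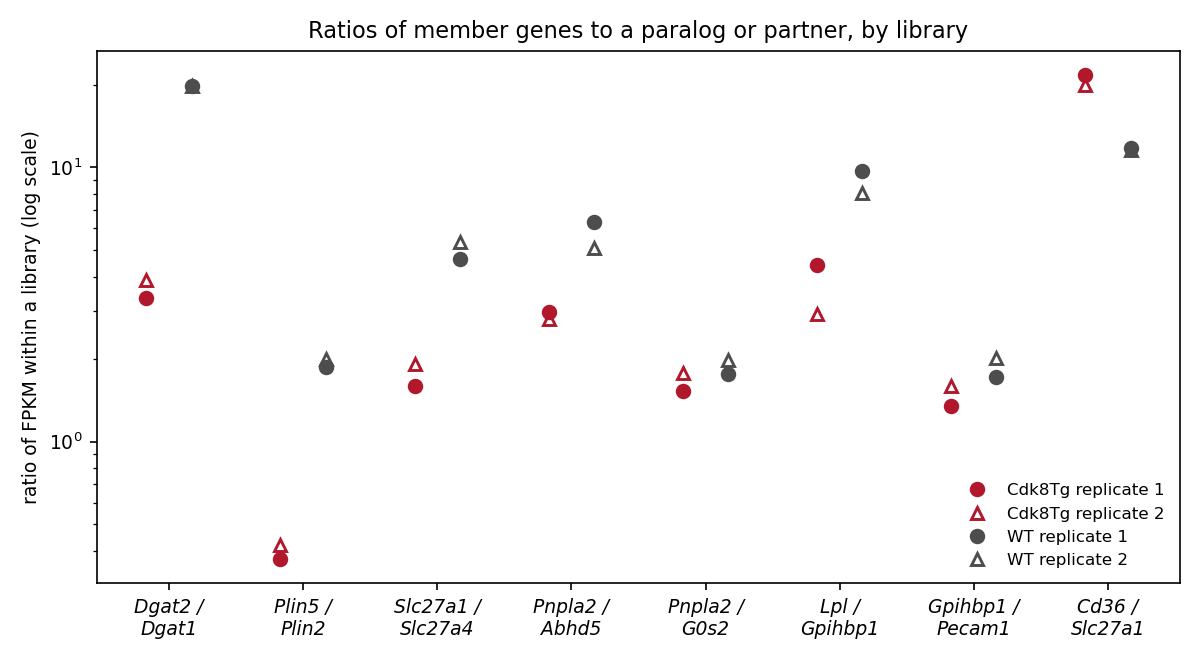
Ratio of FPKM between a gene of the set and a paralog, a partner or another gene of the set within each library (log axis). Cdk8Tg is in red left of WT in grey, with filled circles for replicate 1 and open triangles for replicate 2. Gpihbp1 is also set against the endothelial marker Pecam1, and its ratio to Cdh5, whose ranges overlapped, is not drawn. Dgat2 over Dgat1 was 3.33 and 3.88 in Cdk8Tg against 19.7 and 19.8 in WT and Plin5 over Plin2 was 0.374 and 0.421 against 1.87 and 2.01, whereas the ranges of Pnpla2 over G0s2 overlapped.

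Promoter windows of 250 bases before and 50 bases after the start site were at hand for 6 of the 10 genes, as 11 windows (RefSeq, GRCm38.p6). None was at hand for Lpl, Gpihbp1, Dgat2 and Ces1d. For genes that fell, a window each of Plin5, Cd36 and Pnpla2 is printed, and a window of Lipe, which was not called, stands beside them. Not printed are the windows of Slc27a1, which also fell, those of Vldlr, and a further window each of Plin5 and Lipe. That further Lipe window (chr7:25390063-25390362) held 0 matches, as did windows of Slc27a1 (chr8:71568621-71568920) and Vldlr (chr19:27216234-27216533). Capitals mark each match, on either strand, to AGGTCA, the core motif that many nuclear receptors bind, and to GGGCGG, the GC box bound by Sp1-type factors.
Plin5 (chr17:56117499-56117798, minus strand): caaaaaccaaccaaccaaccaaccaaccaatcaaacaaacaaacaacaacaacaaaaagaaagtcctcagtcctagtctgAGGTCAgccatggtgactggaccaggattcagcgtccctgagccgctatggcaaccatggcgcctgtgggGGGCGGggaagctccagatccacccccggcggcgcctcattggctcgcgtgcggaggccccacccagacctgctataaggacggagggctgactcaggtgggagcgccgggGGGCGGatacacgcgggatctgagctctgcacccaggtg
Cd36 (chr5:17835847-17836146, minus strand): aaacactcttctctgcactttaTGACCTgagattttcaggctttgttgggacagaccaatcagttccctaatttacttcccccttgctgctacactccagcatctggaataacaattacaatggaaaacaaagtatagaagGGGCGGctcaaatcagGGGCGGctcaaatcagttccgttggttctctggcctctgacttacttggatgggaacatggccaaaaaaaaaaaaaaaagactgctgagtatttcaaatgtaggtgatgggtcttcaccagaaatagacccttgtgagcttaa
Pnpla2 (chr7:141454938-141455237, plus strand): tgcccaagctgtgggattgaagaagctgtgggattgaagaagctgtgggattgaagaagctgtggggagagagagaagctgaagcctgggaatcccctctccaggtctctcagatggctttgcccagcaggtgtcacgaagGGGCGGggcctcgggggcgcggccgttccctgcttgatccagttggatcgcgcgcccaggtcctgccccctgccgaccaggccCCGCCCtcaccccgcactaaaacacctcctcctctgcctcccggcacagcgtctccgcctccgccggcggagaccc
Lipe (chr7:25395938-25396237, minus strand): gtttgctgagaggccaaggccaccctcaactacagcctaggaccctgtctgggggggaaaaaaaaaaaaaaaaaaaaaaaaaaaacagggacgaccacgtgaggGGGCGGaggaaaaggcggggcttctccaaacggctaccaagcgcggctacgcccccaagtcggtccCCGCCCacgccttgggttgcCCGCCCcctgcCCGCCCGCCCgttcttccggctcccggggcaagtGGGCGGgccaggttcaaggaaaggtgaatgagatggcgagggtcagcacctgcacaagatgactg
AGGTCA occurred in 3 of the 11 windows, against 16.3% of all 32851 promoter windows. Those were the window of Cd36 and both of Plin5, so that 2 of the 6 genes held AGGTCA. In the printed Plin5 window it covers bases 81 to 86 and in the Cd36 window, on the opposite strand, bases 23 to 28. GGGCGG occurred in 8 of the 11 windows, against 35.7% of all windows. These windows cover all 6 genes, and no share per gene is given for either motif. The windows of Plin5 overlap each other, and a GGGCGG in their shared bases is counted in both. The printed windows held 60.3% (Plin5), 43.0% (Cd36), 65.3% (Pnpla2) and 61.0% (Lipe) of G and C bases, against a median of 52.7% over all windows. The part of base content in the matches was not tested. The printed Lipe window holds 6 matches, of which the pair at bases 202 to 207 and 206 to 211 overlap. A direct repeat of AGGNCA with 1 base between the copies, the form bound by PPAR with RXR, was in 0 of the 11 windows and in 0.381% of all, and TATAAA in 0 of the 11 and in 13.6% of all. A match is a run of letters in this window and no measure of binding.

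Pnpla2, adipose triglyceride lipase, which makes the first cut in stored triglyceride, was at 55.4 and 59.5 FPKM in Cdk8Tg against 113 and 98.0 FPKM in WT. The groups did not overlap, and the Cdk8Tg mean was 54.4% of the WT mean. On the log2 scale Pnpla2 changed by -0.86 ± 0.10 (SE; limma, Benjamini-Hochberg adjusted p = 0.0076), with the call kept under all 15 alternatives. Its inhibitor G0s2 also fell, with 36.3 and 33.4 FPKM in Cdk8Tg, 64.0 and 49.5 FPKM in WT and a log2 change of -0.68 (limma, Benjamini-Hochberg adjusted p = 0.025). That call was lost without Cdk8Tg replicate 2, without either WT replicate and with no filter on low values. Its coactivator Abhd5 was at 18.6 and 21.3 FPKM in Cdk8Tg against 18.0 and 19.2 FPKM in WT, a log2 change of 0.09 that was not called (limma, Benjamini-Hochberg adjusted p = 0.51). The level of Pnpla2 was thus 2.98 and 2.79 times that of Abhd5 in Cdk8Tg and 6.30 and 5.10 times in WT, and it was 1.53 and 1.78 times that of G0s2 in Cdk8Tg and 1.77 and 1.98 times in WT, where the ranges overlapped.

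Lipe, hormone-sensitive lipase, which acts next on diglyceride, was at 7.58 and 11.9 FPKM in Cdk8Tg against 11.3 and 12.2 FPKM in WT. The Cdk8Tg libraries differed by 1.56 times and the groups overlapped. On the log2 scale the difference was -0.28 ± 0.20 with no call (SE; limma, Benjamini-Hochberg adjusted p = 0.33). Without Cdk8Tg replicate 2 it was -0.57 and called lower (limma, Benjamini-Hochberg adjusted p = 0.049), and without Cdk8Tg replicate 1 it was 0.01 (adjusted p = 0.94). Cdk8Tg replicate 2 was the library with fat cell transcripts. Adipoq, the hormone of fat cells, was at 0.0709 and 3.08 FPKM in Cdk8Tg against 0.310 and 0.0619 FPKM in WT, and Plin1, the perilipin of fat cells, at 0.0445 and 1.85 FPKM in Cdk8Tg against 0.156 FPKM and a listed 0 in WT. Of 13 fat cell markers, 7 were tested and 1 was called, Lpl itself, and their summed level, which Fabp4 and Lpl make up for the most part, was 1120 and 1263 FPKM in Cdk8Tg and 1999 and 2092 FPKM in WT. Of 6 brown fat markers, 5 were tested, with 1 called higher and 1 lower. The authors' deposited table called 2 of the 6 higher and 2 lower. Their sum was 1012 and 852 FPKM in Cdk8Tg against 1628 and 1760 FPKM in WT. That sum is nearly all Cox8b, a subunit of cytochrome c oxidase that heart muscle also expresses, called lower at 973 and 793 FPKM in Cdk8Tg against 1579 and 1684 FPKM in WT. The deiodinase Dio2 was called higher, at 1.43 and 3.05 FPKM in Cdk8Tg against 0.361 and 0.244 FPKM in WT. The part of these transcripts in the Lipe value was not tested. Exons of Lipe also overlap those of the antisense gene 4732471J01Rik, and although the libraries were stranded no source used here gives the strand setting of the counting, so reads of the 2 genes may not have been kept apart.

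Mgll, the lipase of the last step, which cleaves monoglyceride, was at 35.1 and 38.3 FPKM in Cdk8Tg against 33.9 and 47.7 FPKM in WT, with a log2 change of -0.13 and no call (limma, Benjamini-Hochberg adjusted p = 0.58). Of the enzymes that act in sequence on a stored triglyceride, Pnpla2 was called lower, and Lipe and Mgll were not. Whether the changes of these genes differ from each other was not tested.

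Ces1d, a carboxylesterase of the endoplasmic reticulum and droplet that hydrolyses triglyceride and other esters, had the lowest level relative to WT. Its level was 1.38 and 5.67 FPKM in Cdk8Tg against 26.0 and 58.8 FPKM in the WT libraries. The groups lay far apart, but replicates differed by 4.10 times in Cdk8Tg and by 2.27 times in WT, more than for any other gene of the set. The Cdk8Tg mean was 8.31% of the WT mean, and the change on the log2 scale was -3.33 ± 0.57 (SE; limma, Benjamini-Hochberg adjusted p = 0.017). Leaving out WT replicate 2 ended the call, at -2.76 and a limma adjusted p of 0.091. So did keeping rows of low FPKM (0.069) and a robust variance model (0.089). The change was -2.59 without Cdk8Tg replicate 1, -4.08 without Cdk8Tg replicate 2 and -3.91 without WT replicate 1, and it was called each time (limma adjusted p = 0.025, 0.015 and 0.045). In the authors' deposited table Ces1d was at 3.97 FPKM in Cdk8Tg and 54.0 FPKM in WT (q-value = 8.6e-04).

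WT replicate 2, which held the highest Ces1d value, also held the liver transcripts, and Ces1d is a gene that liver expresses too. The 8 liver markers summed to 2.44 and 2.43 FPKM in Cdk8Tg and to 2.69 and 17.7 FPKM in WT, with 2 of them tested and 0 called (0 at an unadjusted p under 0.05, and 1 lower in the authors' deposited table). In WT replicate 1, where that sum was close to those of the Cdk8Tg libraries, Ces1d was at 26.0 FPKM. The higher Cdk8Tg value of Ces1d was that of Cdk8Tg replicate 2, the library with fat cell transcripts. The part of liver or fat cell transcripts in the Ces1d value was not tested. Other carboxylesterases of the Ces1 cluster were near 0 in all 4 libraries, with Ces1c, which mouse liver secretes, listed at 0 and at 0.0466 FPKM in Cdk8Tg against 0.0789 and 0.433 FPKM in WT. Of the 31-base stretches of Ces1d transcripts, 6.34% also occur in other annotated genes, the largest such share of the 10 genes. By the depth estimate, and at the length of its longest annotated transcript, Ces1d rested on about 34 and 133 fragments in the Cdk8Tg libraries and on about 720 and 1630 in the WT libraries, so that the lower Cdk8Tg value carries the largest counting error of the set.

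**Figure D3:**
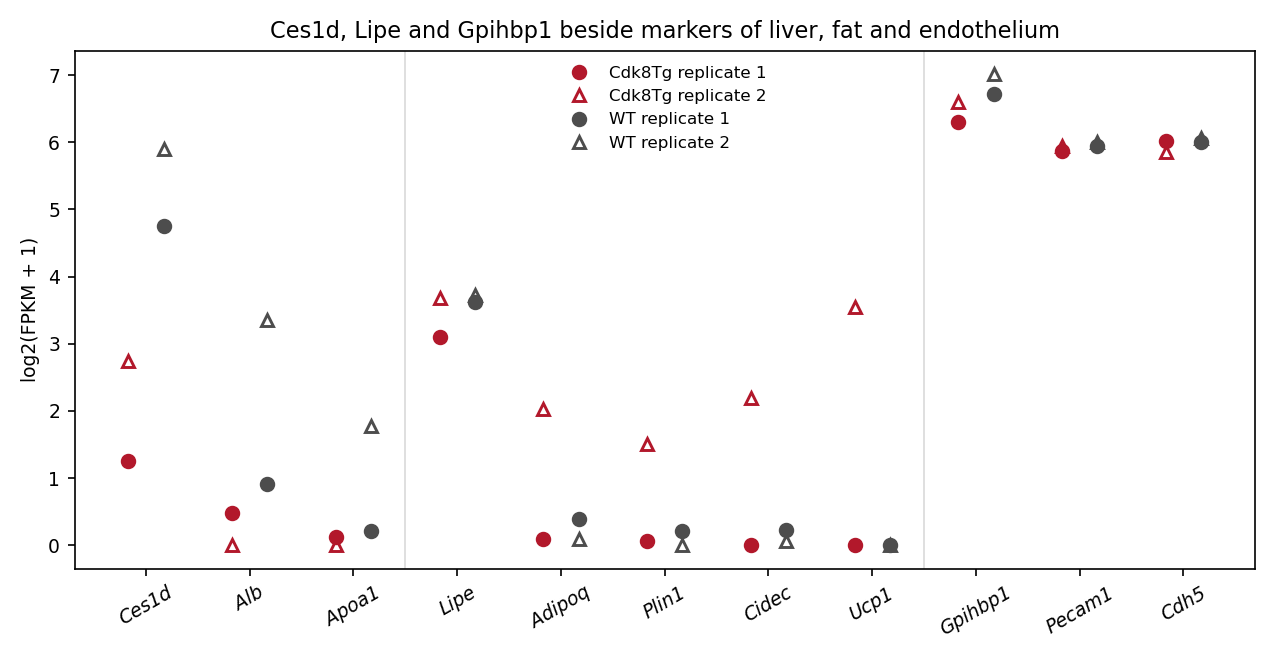
Level on the log2(FPKM + 1) scale of Ces1d beside the liver transcripts Alb and Apoa1, of Lipe beside the fat cell transcripts Adipoq, Plin1, Cidec and Ucp1, and of Gpihbp1 beside the endothelial transcripts Pecam1 and Cdh5, with Cdk8Tg in red left of WT in grey, circles for replicate 1 and triangles for replicate 2. Fat cell transcripts stand out in Cdk8Tg replicate 2 (Ucp1 at 10.7 FPKM) and liver transcripts in WT replicate 2 (Alb at 9.18 FPKM). Pecam1 lay between 57.4 and 63.5 FPKM in all 4 libraries, with both Cdk8Tg libraries below both WT libraries.

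The order of levels within the set differed between the groups. In Cdk8Tg, Lpl and Cd36 led with ranges that overlapped (279 to 341 FPKM and 259 to 282 FPKM), followed by Gpihbp1 and Pnpla2, then Vldlr and Dgat2 with overlapping ranges. Slc27a1 came next without overlap. Plin5 and Lipe followed with overlapping ranges, and Ces1d was last. In WT, Lpl stood alone at 1011 to 1036 FPKM above Cd36 at 383 to 412 FPKM and Dgat2 at 172 to 175 FPKM. Gpihbp1 and Pnpla2 followed with overlapping ranges. Vldlr overlapped with Plin5, Plin5 with Ces1d and Ces1d with Slc27a1, and Lipe was last at 11.3 to 12.2 FPKM.

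**Figure D4:**
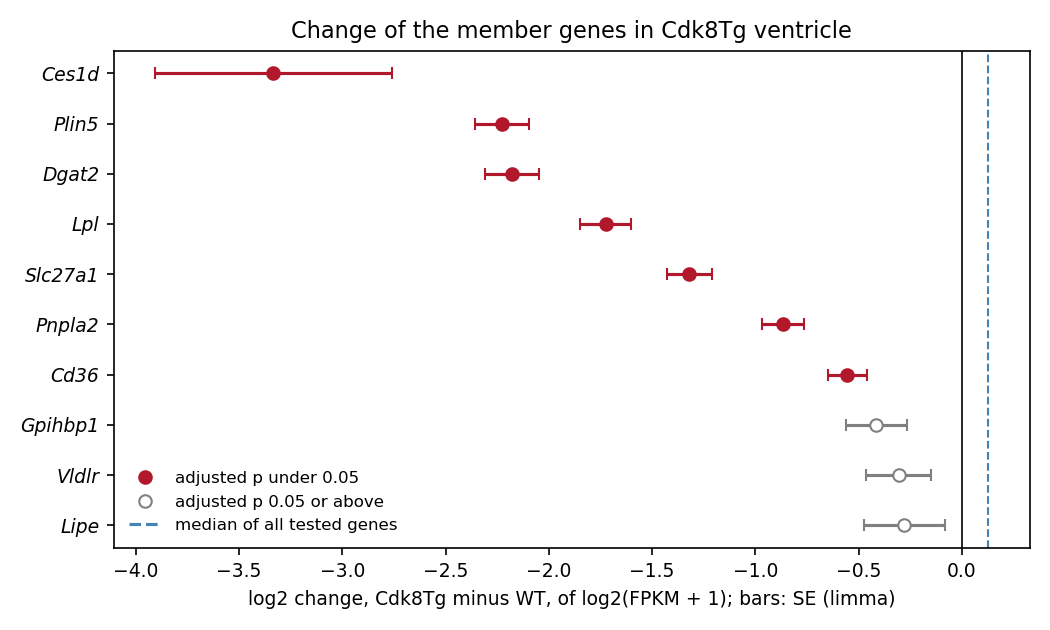
Change of each gene in Cdk8Tg relative to WT on the log2(FPKM + 1) scale (points) with its standard error from limma (bars), sorted by size; red points have an adjusted p under 0.05, and the dashed line marks the median of all 11888 tested genes at 0.13. All 10 points lie below 0, between -3.33 for Ces1d and -0.28 for Lipe, and 7 of them are called.

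Some markers of cardiomyocytes, macrophages and fibroblasts were also called. Among all tested genes, 16.9% were called higher and 7.98% lower, and no such share is given for unadjusted p-values. Of 12 cardiomyocyte markers, 8 were called lower and 0 higher, with 1 higher at an unadjusted p under 0.05 and 2 lower and 0 higher in the authors' deposited table. Their summed level was 45550 and 43130 FPKM in Cdk8Tg and 66250 and 63880 FPKM in WT, and Myh6, the main myosin heavy chain of adult mouse ventricle, was at 4409 and 3622 FPKM in Cdk8Tg against 6424 and 5667 FPKM in WT. Of 10 macrophage markers, 9 were tested, with 5 called lower and 0 higher (8 lower and 0 higher at an unadjusted p under 0.05, 6 lower and 0 higher in the authors' deposited table), and their sum was 178 and 229 FPKM in Cdk8Tg and 289 and 284 FPKM in WT. All 8 fibroblast markers were tested, with 5 called higher and 0 lower (7 higher and 0 lower at an unadjusted p under 0.05, 2 higher and 0 lower in the authors' deposited table), and their sum was 1114 and 1396 FPKM in Cdk8Tg and 946 and 875 FPKM in WT. Of the 7 smooth muscle and pericyte markers, 0 were called, with 1 higher at an unadjusted p under 0.05 and 0 in the authors' deposited table, and they summed to 553 and 813 FPKM in Cdk8Tg and to 508 and 521 FPKM in WT. Of the 5 atrial markers, 4 were tested and 1 was called higher, with 2 higher and 2 lower in the authors' deposited table, and they summed to 861 and 2416 FPKM in Cdk8Tg and to 670 and 225 FPKM in WT. Most of that sum was Nppa, the natriuretic peptide ANP, at 780 and 2072 FPKM in Cdk8Tg against 395 and 199 FPKM in WT. Myl7, the atrial myosin light chain, was highest in WT replicate 1, with 8.51 and 52.7 FPKM in Cdk8Tg against 136 and 11.6 FPKM in WT, and so was Sln, sarcolipin, with 0.218 and 9.94 FPKM in Cdk8Tg against 43.8 and 2.08 FPKM in WT. Of the 6 red blood cell markers, 4 were in the table and 0 were called, with 0 at an unadjusted p under 0.05 and 2 lower in the authors' deposited table, and they summed to 2541 and 1834 FPKM in Cdk8Tg and to 2411 and 3758 FPKM in WT. The part of cell makeup in the lower levels of the lipid genes was not tested.

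Other genes of lipid handling were followed in 5 lists that leave out the 10 genes. Together they held 116 genes in the table, of which 80 were tested, 9 called higher (11.2%) and 13 lower (16.2%), against 16.9% and 7.98% of all tested genes. Their median log2 change was -0.002, against -1.09 for the 10 genes. After median-of-ratios scaling 7 were called higher and 16 lower, and with libraries scaled to an equal FPKM sum 25 and 11. Without WT replicate 2, 2 were called higher and 1 lower, that being Plin3, and without WT replicate 1, 2 and 5. Without Cdk8Tg replicate 2, 5 were called higher and 11 lower, and without Cdk8Tg replicate 1, 12 and 13.

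Genes of the droplet coat and its assembly held the largest falls of these lists. Of 22 such genes, 17 were tested, with 5 called lower and 1 higher, and the median was -0.05. Fitm1, the muscle form of the FIT proteins that help droplets bud from the endoplasmic reticulum, was at 53.5 and 33.2 FPKM in Cdk8Tg against 153 and 159 FPKM in WT, a log2 change of -1.86 (limma, Benjamini-Hochberg adjusted p = 0.0075). Its paralog Fitm2 was at 31.2 and 24.7 FPKM in Cdk8Tg against 59.7 and 56.2 FPKM in WT, a change of -1.03. Plin4 was at 13.3 and 23.2 FPKM in Cdk8Tg against 53.1 and 77.3 FPKM in WT, a change of -1.81, and Plin3 at 24.95 and 25.9 FPKM in Cdk8Tg against 60.3 and 77.5 FPKM in WT, a change of -1.39. Within the perilipin family, Plin3, Plin4 and Plin5 were thus called lower and Plin2 was not, and Plin1 was too low to be tested. Mlxipl, a glucose-responsive transcription factor also known as ChREBP, changed by -0.50 and the small GTPase Rab8a by 0.53. Limma adjusted p-values of these 6 genes lay between 0.0053 and 0.026. Without WT replicate 2 only Plin3 of the 6 kept its call, and without WT replicate 1 Plin3, Plin4 and Fitm1 did. Without Cdk8Tg replicate 2, Mlxipl and Rab8a lost theirs, and with no filter on low values Plin4, Mlxipl and Rab8a did.

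Triglyceride synthesis held 17 tested genes, of which 4 were called lower and 0 higher, with 2 higher at an unadjusted p under 0.05 and 0 higher in the authors' deposited table. Lpin1, the phosphatidate phosphatase that makes the diglyceride used by Dgat2, was at 17.6 and 13.7 FPKM in Cdk8Tg against 34.1 and 38.2 FPKM in WT, a log2 change of -1.17 (limma, Benjamini-Hochberg adjusted p = 0.0076). The acyltransferases Agpat2 and Agpat3, which make phosphatidate, changed by -0.91 and -0.59, and Gpam, the mitochondrial glycerol-3-phosphate acyltransferase of the first step, by -0.51 (limma adjusted p = 0.013, 0.015 and 0.028). The remaining 13, Dgat1 among them, were not called, and the list's median was -0.01. Without WT replicate 2 none of these 4 calls was kept, and without WT replicate 1 only that of Lpin1 was. Gpam also lost its call without Cdk8Tg replicate 1, without Cdk8Tg replicate 2, on the equal-sum scale and with no filter on low values, and Agpat2 with no filter.

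Fatty acid binding and activation went both ways, with 3 genes called lower and 2 higher of 14 tested and a median of -0.07. Acsl1, the main long-chain acyl-CoA synthetase of heart, was at 127 and 120 FPKM in Cdk8Tg against 227 and 220 FPKM in WT, a log2 change of -0.85 (limma, Benjamini-Hochberg adjusted p = 0.0053). Its family members Acsl3 and Acsl4 changed in the other direction, by 0.72 and 0.40. Acsl3 was at 3.51 and 3.79 FPKM in Cdk8Tg against 1.92 and 1.73 FPKM in WT, and Acsl4 was no longer called once scaled by median of ratios, with quantile normalization, with no filter on low values or without any 1 of the 4 libraries. Got2, a mitochondrial aminotransferase also described as a fatty acid binding protein of the plasma membrane, changed by -0.78 and lost its call with quantile normalization and with no filter on low values. Fabp3, the fatty acid binding protein of heart muscle, was at 2636 and 2776 FPKM in Cdk8Tg against 3653 and 3615 FPKM in WT, a change of -0.43 (limma, Benjamini-Hochberg adjusted p = 0.045) that was not called on the equal-sum scale (0.112), with quantile normalization or with no filter on low values (0.215). Fabp4, the form of fat cells and capillary endothelium, was at 756 and 919 FPKM in Cdk8Tg against 954 and 1015 FPKM in WT, and Fabp5, another endothelial form, at 70.9 and 54.0 FPKM in Cdk8Tg against 68.9 and 58.1 FPKM in WT, and neither was called. Slc27a3 was below the filter at 1.004 and 1.11 FPKM in Cdk8Tg and 0.785 and 0.689 FPKM in WT. Without WT replicate 2 none of these 5 calls was kept, and without WT replicate 1 only that of Acsl1 was.

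Of 18 tested genes of lipoprotein capture and lipase control, 5 were called higher and 0 lower. At an unadjusted p under 0.05, 7 were higher and 2 lower, and the authors' deposited table called 3 higher and 0 lower. The median log2 change was 0.23, against 0.13 for all tested genes. With libraries scaled by median of ratios these medians were 0.091 and 0.001. After median-of-ratios scaling 4 were called higher and 2 lower, those lower being the lipase maturation factor Lmf1 and the phospholipid transfer protein Pltp, and Mttp was no longer called. Sdc4, a heparan sulfate proteoglycan of the cell surface, was at 22.6 and 27.8 FPKM in Cdk8Tg against 9.99 and 8.11 FPKM in WT, a log2 change of 1.38 (limma, Benjamini-Hochberg adjusted p = 0.0062). Sort1, the sorting receptor sortilin, was at 16.3 and 18.1 FPKM in Cdk8Tg against 8.05 and 8.20 FPKM in WT, a change of 0.99. Sdc4 and Sort1 kept their calls without each library in turn. The related receptor Sorl1 changed by 0.74, the receptor chaperone Lrpap1 by 0.51 and Mttp, which loads lipid onto lipoproteins, by 0.48 (limma adjusted p = 0.022, 0.017 and 0.038), and without either WT replicate none of these 3 calls was kept. Mttp also lost its call without either Cdk8Tg replicate, with quantile normalization and with no filter on low values, and Sorl1 without Cdk8Tg replicate 2 and with no filter. Lmf1 and Angptl4 were not called on the deposited scale. Lmf1, which the lipase needs to fold, was at 10.1 and 10.5 FPKM in Cdk8Tg against 13.2 and 11.8 FPKM in WT, and Angptl4, which inactivates the lipase, was at 2.04 and 8.29 FPKM in Cdk8Tg against 3.80 and 5.23 FPKM in WT.

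**Figure D5:**
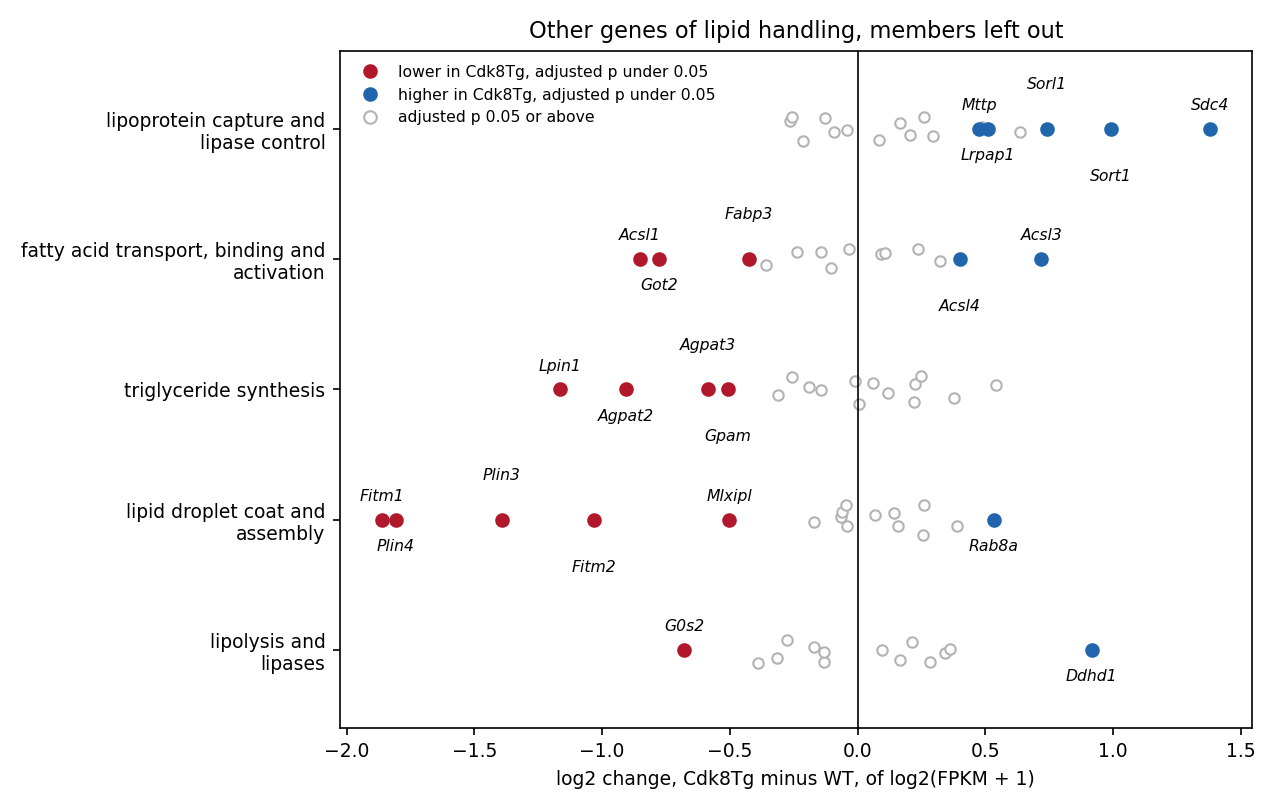
Change of the tested genes of 5 further lists of lipid handling in Cdk8Tg relative to WT, on the log2(FPKM + 1) scale, 1 point per gene, with called genes filled and named (red lower, blue higher) and others open. The droplet list reaches -1.86 for Fitm1, all 4 called genes of triglyceride synthesis lie below 0, and all 5 called genes of lipoprotein capture lie above 0.

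Of 30 listed lipolysis genes outside the set, 29 were in the table and 14 tested, with 1 called lower, G0s2, and 1 higher, the phospholipase Ddhd1, at 5.35 and 6.59 FPKM in Cdk8Tg against 2.63 and 2.73 FPKM in WT (log2 change 0.92; limma, Benjamini-Hochberg adjusted p = 0.011). Over all tested genes, 24.9% were called in either direction. Neither call was kept without WT replicate 1 or without WT replicate 2.

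The profile of Lpl over the 4 libraries was compared with those of the other tested genes by the distance between centred log2(FPKM + 1) values. The 5 nearest were Hhatl, Kcnj3, Tnni3, Dusp18 and Angpt1, at distances of 0.094 to 0.156. Hhatl was at 23.6 and 18.3 FPKM in Cdk8Tg against 75.2 and 72.2 FPKM in WT, and Tnni3, the adult cardiac troponin I, at 2016 and 1890 FPKM in Cdk8Tg against 6610 and 6487 FPKM in WT. With 4 libraries in 2 groups, nearness reflects mainly a like change between the groups.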

How the data were processed

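The authors' deposited tables were used as they stand. The submitters' processing notes name TopHat (1.0.0), Cufflinks, Cuffdiff and the build mm10; no source used here gives the annotation, the strand setting or the scaling between libraries. The first table gives FPKM per library, as deposited by the authors. The second gives, per the file headers, the p-value and q-value of the authors' comparison beside their FPKM of each group.

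Differences were fitted with limma (3.58.1; R 4.3.3) on log2(FPKM + 1), which understates changes of low genes, with a trended variance, no covariate and 2 residual degrees of freedom, over 11888 rows with a mean of at least 1 FPKM. The procedure was run on simulated data with known changes in a small share of genes, where the median estimate was checked against the true change. That check does not measure the rate of false calls in these data. Log2 changes are Cdk8Tg minus WT. FPKM carry no counts; depth was estimated from the steps of values under 0.1 in genes with a single transcript over 800 bases. Per-sample columns left unmapped numbered 0. Other genes named were the called genes of each list, up to 6 by smallest p, a fixed set of paralogs and partners (1 of which is not reported here), and defining markers; Pltp, Rgcc, Cox8b, Dio2, Nppa, Myl7, Sln, Ces1c, Apoa1 and Cidec were added after their values were seen. The 10 genes, the lists and the alternatives were chosen with earlier results of these data known. The alternatives were other pseudocounts, filters, scalings and variance models, a replicate block, leaving out each library and the authors' calls. Promoter windows came from RefSeq (GRCm38.p6), transcripts from GENCODE M21.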

Additional observations from a re-analysis of the deposited data

How the results depend on the processing

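Of the 10 genes, 7 were called lower; this count was 5 with no filter on low values, 6 with quantile normalization, 6 with robust variance and 8 in the authors' deposited table, and leaving out 1 library at a time gave 5 to 8. The count called higher was 0 throughout. Lpl, Slc27a1, Pnpla2, Dgat2 and Plin5 kept their call under all 15 alternatives, and Vldlr was called under none. Cd36 lost its call under 4 and Ces1d under 3. The change of Lipe was -0.57, and called, without Cdk8Tg replicate 2, and it turned to 0.014 without Cdk8Tg replicate 1, because its remaining Cdk8Tg library is the one with the higher value. Over all tested genes, 2958 calls became 1055 with no filter, 5552 on the equal-sum scale, which moved the median change of all genes to 0.30, and 1730 in the authors' deposited table; leaving out 1 library gave 287 to 2380. Of the wider lipid genes, 13 were called lower, but 6 with no filter and 1 to 13 without 1 library; 9 were called higher, but 5 with no filter, 25 on the equal-sum scale, 5 in the authors' deposited table and 2 to 12 without 1 library. The cause of these moves was not tested, beyond 1 residual degree of freedom when a library is left out, with the lone library taken to vary as much as those of its opposite group. Same-numbered replicates did not deviate together (correlation -0.03 over genes), and the labels do not pair them. With the replicate block, 8 of the 10 genes were called lower, Gpihbp1 being the added one (limma adjusted p = 0.029), and 2825 genes in all, while Mttp (0.056) and Fabp3 (0.108) of the wider genes lost their call. Low genes rest on few fragments.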
